A study of Homo sapiens with 6 samples.

Results

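EHF and 9 other genes of the ETS transcription factor family (ELF3, ELF5, SPDEF, ELF1, ETS1, ETS2, ETV4, ETV5 and ERG) were followed in the RNA of COV434 cells with and without BRG1. The members were the rows of the deposited table whose gene symbol equals one of these names. All 10 were found among 19899 genes. COV434, an established human cell line of ovarian origin, was used as a line of SCCOHT, the small cell carcinoma of the ovary of hypercalcemic type. In SCCOHT the gene SMARCA4 is mutated and its protein BRG1, which drives SWI/SNF nucleosome remodeling by hydrolysing ATP, is lost. The Control group was COV434 cells transfected with a control plasmid (pCMV-neo or pCDNA3-neo), and the BRG1 group was the same parental cells transfected with a plasmid for BRG1 (PBJ5-BRG1). Both groups also received a puromycin-resistance plasmid, were placed on 2 to 3 µg/ml puromycin 24 hours later and were harvested after 3 days, with 3 samples in each. Selection therefore acted on the resistance plasmid and not on BRG1 itself, and each sample was a population of transfected cells and not a clone.

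Nothing in the labels says how the 3 samples of a group were separated, so p-values measure the spread between these samples, which may be technical. Total estimated counts ran from 29699741 to 63613710 per sample, with the BRG1 3 library the smallest. SMARCA4, the transfected gene, rose from 1565 ± 120 to 88624 ± 15844 normalised counts (SD, n = 3), with an edgeR FDR of 6.11e-06, and its values in BRG1 2 (79139) and BRG1 3 (79818) were close to each other. Plasmid transcripts are part of these values. Of 6 granulosa cell markers, FOXL2 held at most 1 count in any library and FSHR at most 3, whereas AMH was at 298 ± 89.0 and 408 ± 61.7 normalised counts (SD, n = 3; FDR 0.406). Of 10 epithelial markers, EPCAM, KRT19, GRHL2 and ESRP1 held at most 3 counts in any library.

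ETS factors bind DNA through a winged helix-turn-helix domain that contacts a core of GGAA, and family members differ in the bases they prefer around that core and in the partners they bind with. EHF, ELF3 and ELF5 form an epithelial branch of the family, known from skin, gut, airway, prostate and mammary epithelium, and SPDEF is known from goblet cells and prostate. ETS1 and ETS2 are phosphorylated by ERK on a threonine beside their pointed domain, which increases their activity. ETV4 and ETV5 are transcribed downstream of FGF receptors and ERK, are repressed by CIC and are marked for degradation by COP1. ELF1 is widely expressed, and ERG and its relative FLI1 are best known from endothelium and blood stem cells.

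The stretches before 4 starts are shown because these genes stand for the 3 kinds of change described below: EHF and ELF3 rose, ELF5 appeared from 0 counts, and ETS2 rose from a level already present. They come from RefSeq (GRCh38.p14) and read 5′ to 3′ on the gene's strand. Capitals mark GGAA or its complement TTCC, and positions count back from -1, the base before the start. The EHF stretch (chr11:34624007-34624256, plus strand) and the ETS2 stretch (chr21:38804933-38805182, plus strand) are the 250 bases before an annotated start and held no annotated exon. The ELF3 stretch (chr1:202010486-202010515, plus strand) and the ELF5 stretch (chr11:34511812-34511841, minus strand) are 30 bases around matches. Each overlapped 1 annotated exon, whose gene and strand were not looked up.
EHF: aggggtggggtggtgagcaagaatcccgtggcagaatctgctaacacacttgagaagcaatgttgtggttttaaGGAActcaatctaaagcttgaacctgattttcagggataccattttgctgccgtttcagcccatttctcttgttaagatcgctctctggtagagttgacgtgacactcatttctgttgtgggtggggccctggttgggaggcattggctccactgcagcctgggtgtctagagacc
ETS2: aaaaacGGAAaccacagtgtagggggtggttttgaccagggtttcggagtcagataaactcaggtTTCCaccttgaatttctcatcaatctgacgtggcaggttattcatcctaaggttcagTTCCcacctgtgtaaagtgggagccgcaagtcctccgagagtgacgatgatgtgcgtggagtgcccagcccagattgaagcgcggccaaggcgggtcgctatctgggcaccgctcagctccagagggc
ELF3: agtctaaaggccaGGAAatcccctccatcc
ELF5: cagagtcaGGAAGGAAttTTCCtcctctgg
EHF held 1 match in this window, at -176, and none before its second start. ETS2 held 3, at -244, -185 and -128, and 6 in the 250 bases before its second start. ELF5 held 4 in its window of 250 bases, of which the 3 shown lie at -109, -105 and -99. ELF3 held 2, at -172 and -88. Such matches are common: 92.74% of 35116 RefSeq promoters held GGAA or TTCC in the same 250 bases, with a median of 3 matches. The longer ETS motif CCGGAA, read on both strands and including a GGAA match each time, was in 14.53% of promoters, and the AP-1 motif TGANTCA in 6.573%. Neither was found before any of the 14 annotated starts of 7 members, some with overlapping windows. ETS1, ETV4 and ETV5 had no entry among these promoters and were not scanned. With so few starts and motifs this uncommon, their absence says little.

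EHF went from near absence to a clear signal. Its normalised counts, which are estimated counts divided by the library size and the TMM factor and set to the scale of the mean library, were 1.24, 4.75 and 0.758 in Control 1, 2 and 3 and 88.5, 46.6 and 40.9 in BRG1 1, 2 and 3. All BRG1 samples lay above all Control samples. The whole counts behind the Control values were 1, 4 and 1, against 124, 56 and 27, so the ratio of the summed counts, adjusted for library size, was 31.4 with an exact 95% counting interval of 14.2 to 86.6. That interval covers counting error and not the spread between samples. edgeR's quasi-likelihood test gave a log2 fold change of 4.75 (SE 0.68) and an FDR of 0.00329. Within the same replicate number the folds were 71.6, 9.81 and 54.0, and the call held without any single library, with a log2 fold change of 4.23 to 5.79. In RNA from bulk cells, more cells with EHF and more EHF per cell cannot be told apart.

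ELF3, which activates genes of epithelial differentiation and inflammation, rose as well. Its normalised counts were 7.42, 26.1 and 4.55 in Control 1 to 3 and 178, 129 and 45.5 in BRG1 1 to 3. The groups did not overlap, but both varied several-fold within themselves, and Control 2 was the highest Control library for ELF3 as for EHF. The log2 fold change was 3.26 (SE 0.75) and the edgeR FDR 0.0289. The call depended on single libraries: the FDR was 0.117 without Control 1, 0.0920 without Control 3, 0.0834 without BRG1 1 and 0.0944 without BRG1 2. ELF3 shares 18.48% of its annotated exon bases with other genes, among them its antisense gene ELF3-AS1, and these libraries do not keep strand.

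ELF5, a regulator of mammary alveolar cells, lies next to EHF and had no count in any Control library. In BRG1 1, 2 and 3 it held 13, 9 and 6 counts, which are 9.28, 7.48 and 9.10 normalised counts. Set against a floor of 3 counts over the Control group, it was at least 8.50-fold higher in the BRG1 samples. These counts were too low for edgeR's filter, and no main test was made. With no filter on low counts the edgeR FDR was 0.0210, and DESeq2 gave an adjusted p of 0.0125. With the replicate block in DESeq2 the ELF5 call was lost (adjusted p 0.0663).

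SPDEF stayed near the limit of detection in both groups. Its counts were 2, 1 and 1 in the Control libraries and 9, 4 and 3 in the BRG1 libraries. The BRG1 values were the higher on the normalised scale too (6.42, 3.33 and 4.55 against 2.47, 1.19 and 0.758), and the ratio of the summed counts was 3.64 with an exact 95% counting interval of 1.18 to 15.0. Neither edgeR with no filter (FDR 0.327) nor DESeq2 (adjusted p 0.546) called SPDEF.

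**Figure D1:**
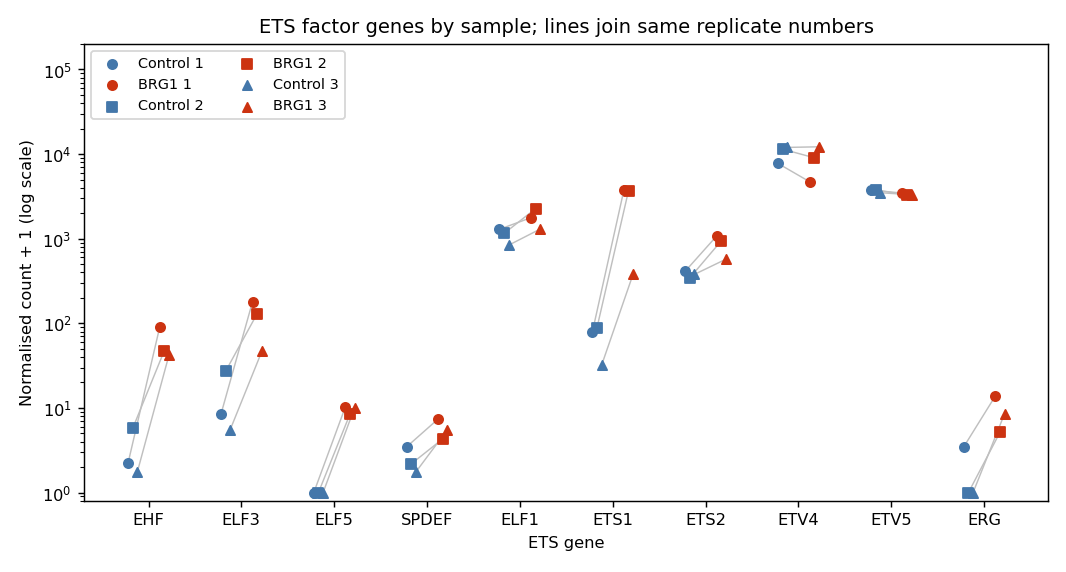
Normalised count plus 1 (log axis) of the 10 ETS genes in each Control (blue) and BRG1 (red) sample, with a marker shape for each replicate number and grey lines joining samples of the same number. ETS1 spans 31.1 to 87.8 in Control and 384 to 3764 in BRG1 samples, and ETV4 is the one gene whose groups overlap.

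ETS1 was among the members that rose most. Its normalised counts were 77.9, 87.8 and 31.1 in Control 1 to 3 and 3764, 3704 and 384 in BRG1 1 to 3. Even BRG1 3, which stood far below the other BRG1 libraries, lay above every Control library. The Control mean was 65.6 ± 30.3 and the BRG1 mean 2617 ± 1935 (SD, n = 3), and the log2 fold change was 5.35 (SE 0.89) and an edgeR FDR of 0.00644. Within replicate numbers the folds were 48.3, 42.2 and 12.3, with Control 3 also the lowest of its group. The call held without any single library (log2 fold change 4.98 to 5.91) and was lost with limma-voom (adjusted p 0.0727).

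ETS2, the closest relative of ETS1, was present without BRG1 and rose by less. Its normalised counts were 412, 344 and 378 in Control 1 to 3 and 1079, 946 and 573 in BRG1 1 to 3, with BRG1 3 again the lowest and still above all Control libraries. Between a Control mean of 378 ± 33.8 and a BRG1 mean of 866 ± 262 (SD, n = 3), the log2 fold change was 1.20 (SE 0.25) with an edgeR FDR of 0.0185. Leaving out any one library other than BRG1 3 ended the call, with FDRs of 0.0589 without Control 1, 0.0869 without Control 2, 0.0691 without Control 3, 0.0591 without BRG1 1 and 0.0850 without BRG1 2. Without BRG1 3 the FDR was 0.00113.

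ELF1, a broadly expressed member of the family, had normalised counts of 1292, 1155 and 839 in Control 1 to 3 and 1774, 2272 and 1302 in BRG1 1 to 3. The groups lay apart by a narrow margin, since BRG1 3 was only just above Control 1. The log2 fold change was 0.71 (SE 0.24) and the edgeR FDR 0.131, so ELF1 was not called. Blocking on the replicate number gave an FDR of 0.00706, and it was 0.0201 without BRG1 3. Within replicate numbers the folds were 1.37, 1.97 and 1.55.

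ETV4 and ETV5, of the branch that ERK induces, were the most abundant members and were not called. ETV4 had normalised counts of 7744, 11421 and 11991 in Control 1 to 3 and 4712, 9046 and 12191 in BRG1 1 to 3. The groups overlapped, with the highest and the lowest ETV4 value both in BRG1 samples. Its log2 fold change was -0.26 (SE 0.33) with an edgeR FDR of 0.731, and its sign turned without BRG1 1 (0.03). ETV5 was the steadiest member, at 3759, 3776 and 3494 in Control 1 to 3 and 3456, 3265 and 3308 in BRG1 1 to 3. All BRG1 values of ETV5 lay below all Control values, by a log2 fold change of -0.14 (SE 0.10) that the test did not call (FDR 0.509).

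ERG, known for its role in endothelium and for its fusion with TMPRSS2 in prostate cancer, was barely detected. It held 2, 0 and 0 counts in the Control libraries and 18, 5 and 5 in the BRG1 libraries, or 12.8, 4.16 and 7.58 normalised counts in the latter. The ratio of the summed counts was 12.7 with an exact 95% counting interval of 3.21 to 110. Neither edgeR with no filter (FDR 0.129) nor DESeq2 (adjusted p 0.178) called ERG.

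Of the 10 members, 7 passed the filter, and at an edgeR FDR under 0.05 the test called 4 of them higher and 0 lower. Over all 14246 genes tested, 9.57% were called higher and 1.02% lower. By the unadjusted p, 5 members were higher and 0 lower at 0.05. EHF and ELF3 passed the filter only through their BRG1 libraries, and ELF5, SPDEF and ERG did not pass, so the counts over passing members are a description of this choice of genes. The median log2 fold change of the 7 was 1.20, against -0.04 over all genes tested. With the replicate block 5 members were called higher, ELF1 being the added one, and 0 lower, where 13.7% of all genes were called higher and 5.68% lower. DESeq2 called 5 higher, with ELF5 and without ELF1, and 0 lower, where 11% and 1.84% of 15991 genes were called. With no filter on low counts edgeR called the same 5 as DESeq2 higher and 0 lower, where 8.1% and 0.823% of 18096 genes were called. All 3 BRG1 samples lay above all 3 Control samples for 8 members and below them for 1, ETV5. Of the 18096 genes with a count, 15.4% lay wholly above and 9.25% wholly below.

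Compared per kb of exon, the order of the members' levels ran over several orders of magnitude. In Control samples the median normalised count per kb was 3249 for ETV4, 651 for ETV5, 260 for ELF1, 76.0 for ETS2 and 10.9 for ETS1. ELF3 (1.03), SPDEF (0.62) and EHF (0.187) followed, with ranges over samples that overlapped between neighbours, and ELF5 and ERG had a median of 0. In BRG1 samples ETV4 (2573) and ETV5 (573) remained at the top and ETS1 moved from rank 5 to rank 3 (518). The range of ETS1 over BRG1 samples, 53.7 to 527 per kb, lay below that of ETV5 (565 to 599) and overlapped those of ELF1 (median 399, range 293 to 512) and ETS2 (median 190, range 115 to 217). ELF3 (17.9) and EHF (7.04) came next and overlapped each other, and SPDEF (2.38), ELF5 (1.85) and ERG (1.00) were lowest, each overlapping the next. EHF, though it rose, stayed well under ETS1 and the ETV genes per kb in every BRG1 sample.

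**Figure D2:**
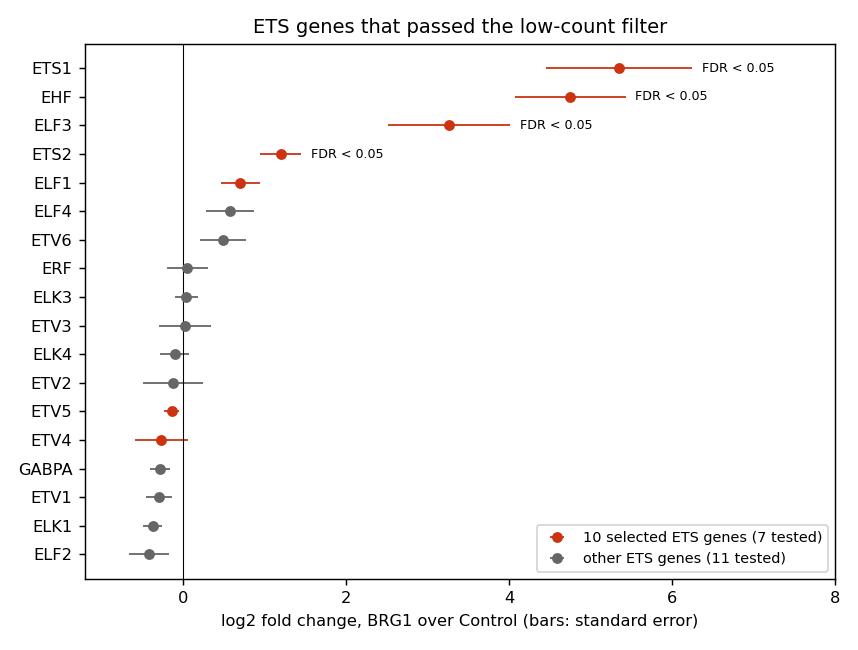
Log2 fold change of BRG1 over Control (x axis; bars, standard error) for the ETS genes that passed the low-count filter, the 7 members in red and the 11 others in grey. ETS1, EHF, ELF3 and ETS2 have an FDR under 0.05, and no other ETS gene does.

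The rest of the ETS family gives the comparison. Of 18 other ETS genes, 11 passed the filter and 0 were called in either direction by edgeR (unadjusted p under 0.05: 0 higher and 1 lower) or by DESeq2. Over all genes tested, edgeR called 9.57% higher and 1.02% lower, and DESeq2 11% and 1.84%. With so few genes, 0 calls is near these shares. The median log2 fold change of the 11 other ETS genes was -0.10, with 5 of 11 above 0. The difference between the members and these genes was not tested, since the members were chosen with results known. ELK1, a partner of SRF at growth-factor genes, was the one with an unadjusted p under 0.05. ELK1 went from 5080 ± 382 to 3937 ± 384 normalised counts (SD, n = 3; log2 fold change -0.37, SE 0.12, edgeR FDR 0.105), and it was called lower with the replicate block (FDR 0.0376). ETV6, a repressor needed for blood stem cells, had a log2 fold change of 0.49 (edgeR FDR 0.397) and was called higher with the block (FDR 0.0219).

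The other tested relatives moved little or varied between samples. ELF4 had a log2 fold change of 0.58 (edgeR FDR 0.332), ELF2 of -0.42 (FDR 0.420), ETV1 of -0.29 (FDR 0.361) and GABPA of -0.28 (FDR 0.269). ELK4 (-0.10), ETV2 (-0.12), ERF (0.06), ELK3 (0.05) and ETV3 (0.03) had log2 fold changes near 0, with signs that turned in at least 1 fit that left out a library. FLI1, the relative of ERG, had 0 counts in all Control libraries and 9, 13 and 2 in the BRG1 libraries, which is at least 7.28-fold higher against the floor of 3 counts. With no filter on low counts FLI1 had an edgeR FDR of 0.0472, and its DESeq2 adjusted p was 0.0527. SPI1, the factor of myeloid and B cells, held at most 2 counts in any library.

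Several ETS genes lie in pairs. Starts here and below are the outer 5′ ends of the GENCODE genes. For EHF, ELF3 and ELF5 these lie upstream of the RefSeq starts used for the printed stretches. EHF and ELF5 start 95.9 kb apart on chromosome 11 on opposite strands, and ETS1 and FLI1 start 99.0 kb apart on the same chromosome. ETS2 and ERG start 143.4 kb apart on chromosome 21. In each pair both genes had all BRG1 samples above all Control samples, with the second gene of each pair at low counts. The same held for 15.4% of the 18096 genes with a count. By GRCh38 coordinates EHF spans chr11:34621093-34663288 and ELF5 chr11:34478791-34525193. ETS1 spans chr11:128458761-128587558, ETS2 chr21:38805183-38824955 and ERG chr21:38380027-38661780.

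The genes around EHF differed sharply from one another. Of 15 other genes in the table that start within 1000 kb of EHF, 12 were tested and 5 were called higher, with 0 lower. Over all genes tested, 9.57% were called higher and 1.02% lower. CD44, a receptor for hyaluronan that starts 517.8 kb beyond EHF, rose from 57.1 ± 17.7 to 6105 ± 3634 normalised counts (SD, n = 3; log2 fold change 6.77, edgeR FDR 0.000277). LMO2, a bridging factor of blood and endothelial cells that starts 729 kb before EHF, had 17.3, 13.1 and 9.09 in Control 1 to 3 and 190, 156 and 156 in BRG1 1 to 3 (log2 fold change 3.69, edgeR FDR 0.000483). PAMR1 (4.51, FDR 0.00635), ABTB2 (2.17, FDR 0.00757) and the complement inhibitor gene CD59 (1.20, FDR 0.00658) were the other log2 fold changes called by edgeR. PAMR1, like EHF, passed the filter only through its BRG1 libraries. In between lay genes with values near 0. CAT, the catalase gene 182.2 kb before EHF, had a log2 fold change of -0.04, and PDHX and APIP, 294.7 and 295.3 kb beyond EHF, had 0.09 and 0.11 (edgeR FDR 0.908, 0.812 and 0.811).

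**Figure D3:**
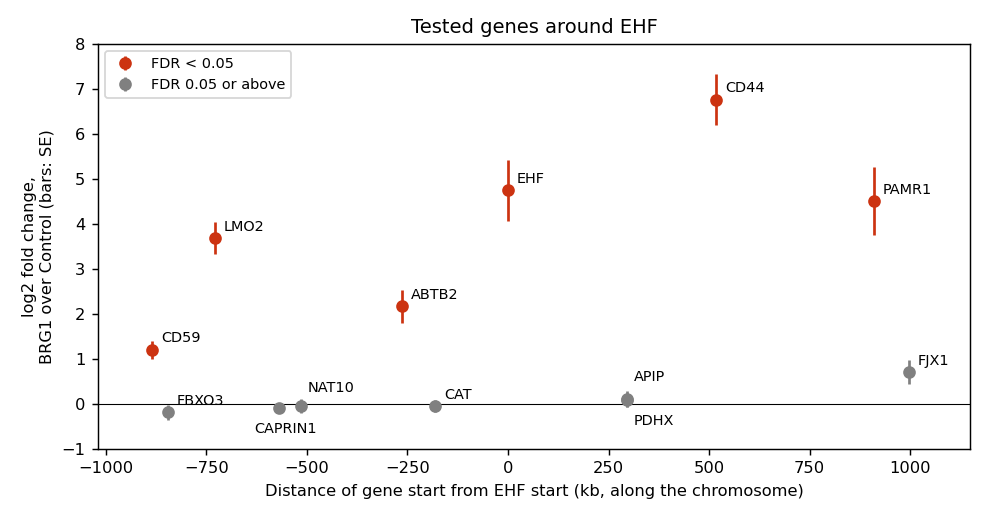
Log2 fold change of BRG1 over Control (y axis; bars, standard error) of tested genes against the distance of their start from that of EHF in kb, with genes at an edgeR FDR under 0.05 in red. CD44, EHF, PAMR1, LMO2, ABTB2 and CD59 are red, while CAT, PDHX and APIP lie near 0.

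By Pearson's r of log2(normalised count + 1) over the 6 samples, the genes most like EHF were ATP6V0A4 (0.997), BDNF (0.997), PRKCH (0.996), SLCO2B1 (0.996) and RBM24 (0.996). This is a description, since the points share the split into groups and 1198 of 14218 genes had r over 0.9 with EHF. ATP6V0A4, a subunit of the proton pump of kidney intercalated cells, resembled EHF in size too, at 0, 1.19 and 0 in Control and 28.6, 16.6 and 16.7 normalised counts in BRG1 samples. BDNF, a neurotrophin, had 381, 438 and 375 in Control and 630, 601 and 559 in BRG1 samples, so its likeness to EHF was in the order of the samples and not in the fold.

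Regulators and partners of the ETS factors were mostly level. Of 12 such genes, 11 were tested, 1 was called higher and 0 lower, against 9.57% and 1.02% of all genes tested. RUNX1, which binds DNA together with ETS1, went from 33.4, 23.7 and 19.7 in Control 1 to 3 to 138, 190 and 45.5 normalised counts in BRG1 1 to 3 (log2 fold change 2.30, SE 0.54, edgeR FDR 0.0328). As for ETS1, BRG1 3 was the lowest of its group and still above all Control libraries. The RUNX1 call was lost with limma-voom and when any one library other than BRG1 3 was left out. CIC, the repressor of ETV4 and ETV5, had a log2 fold change of 0.05 (edgeR FDR 0.861), and COP1, which is listed under its older symbol RFWD2, had -0.25 (FDR 0.284). SRF, called in neither direction (log2 fold change -0.39, edgeR FDR 0.465), was called lower with the replicate block (FDR 0.0301).

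Genes that ERK signaling induces were all 8 tested, and 1 was called higher and 0 lower, against 9.57% and 1.02% of all genes tested. CCND1, which encodes cyclin D1, rose from 1051 ± 561 to 7034 ± 4287 normalised counts (SD, n = 3; log2 fold change 2.75, SE 0.56, edgeR FDR 0.0172), a call that was lost without Control 2 or without BRG1 2. DUSP6, an ERK phosphatase whose gene responds to ERK much as ETV4 and ETV5 do, had a log2 fold change of -0.16 (edgeR FDR 0.674), and SPRY4, another feedback inhibitor, had 0.25 (FDR 0.544). With the replicate block 4 were called higher: CCND1, PHLDA1 (FDR 0.000118), EPHA2 (FDR 0.000125) and DUSP4 (FDR 0.0229), and DESeq2 called 3. Without BRG1 3 the list had 3 calls.

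Genes reported elsewhere as targets of the epithelial ETS factors ranged from absent to strongly raised. Of 11 listed for EHF, ELF3 or ELF5, 5 were tested and 3 were called higher, with 0 lower. The shares over all genes tested were 9.57% higher and 1.02% lower. FLG, the filaggrin of the skin barrier, had 172, 84.3 and 113 normalised counts in Control 1 to 3 and 18514, 11917 and 9232 in BRG1 1 to 3 (log2 fold change 6.75, SE 0.39, edgeR FDR 8.41e-05). KRT4, a keratin of stratified epithelia, went from 2 counts over the Control group to 4426 over the BRG1 group, a ratio of 2015 with an exact 95% counting interval of 557 to 16640 (edgeR FDR 0.00129). It passed the filter only through its BRG1 libraries. TGFBR2, a TGF-beta receptor whose gene is a reported target of ELF3, rose from 317 ± 49.4 to 972 ± 292 (SD, n = 3; log2 fold change 1.62, SE 0.26, edgeR FDR 0.00583). ANGPT1, at 7211 ± 1748 and 6145 ± 1948 normalised counts (SD, n = 3; log2 fold change -0.23, edgeR FDR 0.683), and PTGS2 (log2 fold change -0.13, edgeR FDR 0.910) were tested and not called. The milk protein genes CSN2 and LALBA, linked to ELF5, held at most 1 count in any library. The remaining listed genes were also too low for edgeR's filter. TGM3 had 2 counts over the Control and 36 over the BRG1 group, and NOS2 had 4 and 24. CLDN7 had 7 and 4, and SPRR2A had 3.51 ± 1.97 and 3.83 ± 2.01 normalised counts (SD, n = 3).

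Calls of the SPDEF targets and the matrix proteases stand beside 9.57% higher and 1.02% lower over all genes tested by edgeR. For DESeq2 the shares were 11% and 1.84%. With so few genes tested, 0 calls is near these shares. Of 6 genes listed for SPDEF, 1 was tested and 0 were called by edgeR or DESeq2 (unadjusted p under 0.05 in edgeR: 1 higher). That gene, CREB3L1, had normalised counts of 13.6, 13.1 and 15.2 in Control 1 to 3 and 14.3, 32.4 and 60.6 in BRG1 1 to 3 (log2 fold change 1.31, edgeR FDR 0.236), and AGR2, a disulfide isomerase of secretory cells, stayed between 2.86 and 11.9 in every sample. Of 8 matrix protease genes listed for ETS1 or ETV4 and ETV5, 5 were tested and 0 were called by edgeR or DESeq2 (unadjusted p under 0.05 in edgeR: 1 higher). By the mean over all 6 samples the most abundant were PLAUR, the urokinase receptor gene (log2 fold change 0.27, edgeR FDR 0.779), and MMP7, although in Control samples MMP7 (mean 8.78) was below MMP1 (27.1), MMP14 (23.1) and MMP3 (13.5). MMP7, which encodes matrilysin, had 16.1, 9.49 and 0.758 in Control 1 to 3 and 81.4, 45.7 and 7.58 in BRG1 1 to 3, a log2 fold change of 2.47 (edgeR FDR 0.209) that was called with the replicate block (FDR 0.00809). PLAU, the urokinase gene, did not pass the filter, with 6 counts over the Control and 68 over the BRG1 group. That ratio was 10.3, with an exact 95% counting interval of 4.50 to 29.1. The groups overlapped for PLAU, and DESeq2 did not call it (adjusted p 0.0933).

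Because ERG, FLI1 and ETS1 are known from endothelium, markers of that cell type were read beside them. Of 12, 10 were tested, 6 were called higher and 0 lower, where 9.57% and 1.02% of all genes tested were called. Their summed normalised count ran from 2752 to 3712 in Control and from 7656 to 8283 in BRG1 samples. VWF, the clotting factor of endothelial granules, rose from 45.0 ± 31.9 to 3498 ± 238 (SD, n = 3; log2 fold change 6.21, edgeR FDR 0.000143). CDH5 and ROBO4, 2 surface proteins of endothelium, went from 2 to 541 and from 1 to 341 counts over a group (edgeR FDR 0.00299 and 0.000235), FLT1 from 5.08 ± 6.85 to 187 ± 35.0 normalised counts (FDR 0.00473) and TIE1 from 12.3 ± 7.15 to 76.8 ± 3.95 (FDR 0.00717). CDH5, ROBO4 and FLT1 passed the filter only through their BRG1 libraries. TEK was present before and rose from 484 ± 77.4 to 941 ± 120 (FDR 0.0122). The defining markers PECAM1 (0, 23.7 and 8.33 in Control; 7.14, 12.5 and 37.9 in BRG1 samples; FDR 0.758) and CLDN5 (8 counts over the Control and 14 over the BRG1 group) stayed low, and KDR had a log2 fold change of 0.13 (FDR 0.842). In BRG1 1, 2 and 3, VWF had 3598, 3226 and 3670 normalised counts and was highest in BRG1 3. CDH5 (268, 114 and 43.96), FLT1 (212, 202 and 147), ROBO4 (110, 109 and 84.9), TEK (1077, 892 and 853) and TIE1 (81.4, 74.8 and 74.3) were lowest in BRG1 3. So was ETS1 (3764, 3704 and 384), which stood further below its other BRG1 libraries in proportion than these markers did.

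In the other marker lists some genes were called and others were level. The calls of these lists stand beside 9.57% higher and 1.02% lower over all genes tested. Of 8 blood cell markers, 4 were tested and 2 called higher, HBB (6 counts over the Control and 102 over the BRG1 group, edgeR FDR 0.00147) and LYZ (3 and 59, FDR 0.00938). Both passed the filter only through their BRG1 libraries. CD68 was not called (edgeR FDR 0.307), but it was with the replicate block (FDR 0.0343). PTPRC was level, at 509 ± 164 and 522 ± 194 normalised counts (SD, n = 3, edgeR FDR 0.974). CD3E and HBA1 held at most 1 count in any library. The summed normalised count of that list was 1860 to 2912 in Control and 2462 to 3899 in BRG1 samples. Of the 10 epithelial markers, 4 were tested and 2 called higher, KRT8 (29.7, 27.3 and 15.2 in Control, 1370, 796 and 400 in BRG1 samples; edgeR FDR 0.000718) and KRT18 (22.8 ± 11.6 to 131 ± 73.8, SD, n = 3; FDR 0.0221), with summed normalised counts of 128 to 161 in Control and 655 to 1906 in BRG1 samples. CLDN4 was not called (log2 fold change 1.40, edgeR FDR 0.0645), but it was with the replicate block (FDR 0.0315) and by DESeq2 (adjusted p 0.00564). CDH1, which encodes E-cadherin, was tested and did not rise (log2 fold change -0.02, edgeR FDR 0.984). It had 3.71, 58.1 and 3.79 normalised counts in Control 1 to 3 and 30.7, 8.31 and 24.3 in BRG1 1 to 3. Of the granulosa cell markers, 4 were tested and 2 called higher, CYP19A1 (23.5 ± 7.91 to 321 ± 110, SD, n = 3; edgeR FDR 0.000718) and INHBA (92.6 ± 26.5 to 696 ± 465; FDR 0.0160), with summed normalised counts of 406 to 533 and 963 to 2030. INHA (log2 fold change -0.15, edgeR FDR 0.85) and AMH (log2 fold change 0.45, edgeR FDR 0.406) were tested and not called. Leaving out single libraries lowered some of these counts of calls: endothelial markers to 5 without Control 1 or Control 2, blood cell markers to 1 without Control 3, epithelial markers to 1 without Control 2, Control 3 or BRG1 1, and granulosa cell markers to 1 without Control 1, Control 2, Control 3 or BRG1 2. The part of such cells in the rise of EHF, ELF3, ETS1 and ETS2 was not tested.

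**Figure D4:**
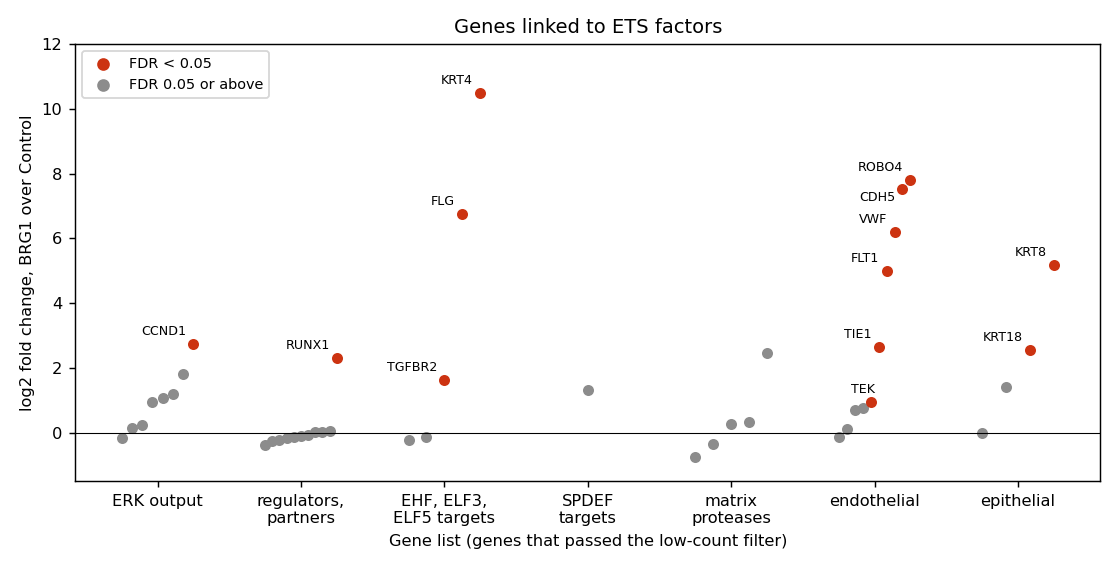
Log2 fold change of BRG1 over Control (y axis) for the tested genes of 7 lists linked to ETS factors, each point a gene and red at an edgeR FDR under 0.05. Red points are RUNX1, CCND1, FLG, KRT4, TGFBR2, 6 endothelial markers, KRT8 and KRT18, and the fitted values of KRT4, CDH5 and ROBO4 rest on 1 or 2 Control counts and are no bound.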

How the data were processed

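RNA was sequenced from 3 Control and 3 BRG1 samples of COV434 cells as unstranded poly(A) read pairs of 78 bp. The authors deposited estimated counts for each gene, made with STAR (2.5.3a), Salmon (0.8.2) and tximport, from TPM scaled by transcript length and library size. Salmon's model divides reads that match more than 1 gene.

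Here the estimated counts were rounded. Genes passing filterByExpr (minimum count 10; 14246 genes) were tested with edgeR (4.0.16, R 4.3.3) by its quasi-likelihood test with TMM factors, Benjamini-Hochberg adjusted (FDR) and called under 0.05. The study names DESeq2 without a formula; DESeq2 (1.42.0) and limma-voom (3.58.1) were alternatives, because DESeq2 made more false calls on simulated data. The labels state no pairing, but samples of equal number were alike: deviations from the group means correlated at 0.341, 0.32 and 0.47 for equal numbers over 14135 genes. The main test used no block, so blocked values are given where they change a call of a named gene. The libraries differed from each other by more than sampling noise. The floor was 3 counts over the Control group; floors and intervals cover counting error only. Coordinates are GENCODE 44 (GRCh38), a later release than the authors'.

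Named genes were the 10 members, tested ETS relatives, up to 6 called genes of each list by FDR (the 2 most abundant where none was called), called genes near EHF and the 5 most like it; further genes were named after their values were seen. Members and lists were chosen with earlier results of these data known.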

Additional observations from a re-analysis of the deposited data

How the results depend on the processing

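EHF was called in every fit that tested it (log2 fold change 4.23 to 5.79; it was not tested under a filter of CPM 1 in 3 samples). All genes called higher numbered 1364 (1028 to 1795 with 1 library left out), and 2095 in DESeq2 with the replicate block. All genes called lower numbered 146, but 809 with the replicate block in edgeR, 294 in DESeq2, 1035 in DESeq2 with the block, 31 at an FDR under 0.01 and 39 to 256 with 1 library left out (highest without BRG1 3). Members called higher were 4, 2 at an FDR under 0.01 and 2 to 5 with 1 library left out. With the replicate block, the other ETS genes had 1 call higher in edgeR and in DESeq2 (1 also with no low-count filter, FLI1), and 1 lower in edgeR and 2 in DESeq2. The regulators and partners had 1 call lower with the block in either tool, and 0 higher with limma-voom, 0 at an FDR under 0.01 and 0 to 1 with 1 library left out. The ERK output genes had 4 calls higher with the block in edgeR, 3 in DESeq2, 6 in DESeq2 with the block, 0 at an FDR under 0.01 and 0 to 3 with 1 library left out. The matrix proteases had 1 with the block in either tool and 0 to 2 with 1 library left out. Blood cell markers had 0 under the CPM filter and 1 to 2 with 1 library left out, epithelial markers 1 at an FDR under 0.01 and 1 to 3 with 1 library left out, and granulosa cell markers 1 with limma-voom, 1 at an FDR under 0.01 and 1 to 2 with 1 library left out. In edgeR the block changed no other call of a gene named in the report, apart from those given there and that of BDNF (adjusted p 0.0700 without and 0.0230 with it). In DESeq2 the block also ended the ELF5 call (adjusted p 0.0125 without and 0.0663 with it) and added calls of ELF2 (0.466 and 0.0414) and SPRY4 (0.603 and 0.0342).

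Signs of uncalled log2 fold changes turned when 1 library was left out, with ranges of -0.57 to 0.029 for ETV4, -0.19 to 0.28 for ERF, -0.24 to 0.14 for ETV2, -0.24 to 0.28 for ETV3, -0.048 to 0.15 for ELK3 and -0.23 to 0.061 for ELK4. The cause of these changes was not tested. With 3 samples a group and under 10 counts for SPDEF and ERG in most libraries, depth limits what can be said of them.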
